A study of Mus musculus with 12 samples.

Results

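The genes described here are 9 components of the Hedgehog pathway, *Ihh*, *Ptch1*, *Hhip*, *Smo*, *Sufu*, *Kif7*, *Gli1*, *Gli2* and *Gli3*, taken by symbol from a table of 32288 genes and transgenes, and all 9 were found. Bulk RNA-seq had been run on mGFP+ cells of the mouse long bone metaphysis, sorted as *Osx*+ osteoblasts after removal of cells bearing CD31, CD45 or TER119. Juvenile *Osx*+ osteoblasts (4 libraries, mice at 3 weeks of age) and adult *Osx*+ osteoblasts (4 libraries, 8 weeks) came from *Osx-CreERT2*, *mTmG* mice, in which tamoxifen turns on membrane GFP in cells that express *Osx*. Each of these 8 libraries pooled the femurs and tibias of 2 male mice, taken 2 days after the last of 3 daily tamoxifen doses, and the diaphysis had been trimmed about 2 mm from the growth plate. *c-Myc*-induced osteoblasts (2 libraries) and *c-Myc* + *R172H* osteoblasts (2 libraries) came from mice that carried *Osx-CreERT2*, *mTmG*, *LSL-tTA* and *Col1a1::TetO-c-Myc*, the second group with the conditional *Trp53-LSL-R172H* allele in addition.

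The *c-Myc* transgene of both induced groups is driven by a tetracycline-regulated activator that Cre releases in *Osx*-expressing cells. Tamoxifen was given on 2 consecutive days at 3 weeks of age and the cells were sorted 7 days later. The titles of these libraries carry 3 weeks, whereas in the methods the mice were 5 weeks old, with a trim of about 5 mm from the growth plate. One passage of the methods says that these mice were of either sex, and another that RNA-seq used male mice. *Xist*, given below, was high only in replicate 2 of each induced group, so sex may differ from the male juvenile pools. By the methods, tet-OFF mice or their pregnant mothers drank doxycycline or tetracycline until a set time before analysis. Age, trim, tamoxifen schedule, this drug treatment and the *LSL-tTA* allele therefore cannot be told apart from *c-Myc* in any comparison with the juvenile group. Only the *Trp53-LSL-R172H* allele separates the *c-Myc* and *c-Myc* + *R172H* groups by design.

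In the Hedgehog pathway a secreted ligand binds the receptor PTCH1, which otherwise holds the membrane protein SMO inactive. Active SMO, acting at the primary cilium with KIF7, relieves the GLI transcription factors of SUFU, after which GLI2 acts mainly as an activator, GLI3 is processed less into its repressor form, and *Gli1*, *Ptch1* and *Hhip* are transcribed as targets. In the growing bone the ligand is Indian hedgehog, made by prehypertrophic and hypertrophic chondrocytes, and *Gli1* marks progenitors of metaphyseal osteoblasts beneath the growth plate.

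The promoters of these genes, 250 bases before to 50 after the annotated start in RefSeq on GRCm38.p6, were searched on both strands for the GLI consensus GACCACCCA and for the shorter core CCACCC that it contains. Of the 9 genes, 8 had a promoter in the table, all but *Gli1*. The consensus was in none of the 8, against 83 of 32851 promoters of the same length (0.253%). The core, which 10340 promoters held (31.5%), was in those of *Gli2*, *Gli3*, *Hhip*, *Ihh* and *Smo* and in none of *Kif7*, *Ptch1* and *Sufu*. The promoter searched for *Ptch1*, chr13:63565686-63565985 (minus strand), lay inside the gene, whose annotated 5' end is at 63573598. That of *Gli3*, chr13:15463473-15463772 (plus strand), also lay inside its gene, which starts at 15463235. The sequence before those outer starts was not searched. The windows of 30 bases below hold the core or its reverse complement GGGTGG, in capitals, in the 4 of these promoters whose genes differed between groups, each read on the strand of its gene. That of *Gli2* spans chr1:119053800-119053829 (minus strand), that of *Gli3* chr13:15463541-15463570 (plus strand) and that of *Hhip* chr8:80058149-80058178 (minus strand). Those of *Ihh* span chr1:74951893-74951922 and chr1:74951836-74951865 (minus strand). A match of these letters is a description of the sequence, not a binding site.
Gli2: ctccaGGGTGGtgtccccCCACCCccagcc
Gli3: gggacggggcggGGGTGGgggcgcgcgagg
Hhip: cgcagccggaggCCACCCtgggccccggcg
Ihh upstream: accaGGGTGGggtgaggcccgtcaggagga
Ihh downstream: agggcagcgggcGGGTGGacgcgcggctga

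Total counts per library ran from 9066154 to 15684412. Levels are given as counts relative to the TMM-adjusted library size (CPM, set over the 12 libraries), on which scale 3 counts, taken as the floor of detection, were worth 0.137 to 0.417 CPM. A gene is said to be called where its edgeR adjusted p was below 0.05. *Myc* was at 39.8 to 52.2 CPM in the 8 juvenile and adult libraries and at 624 to 748 CPM in the 4 induced libraries, as their labels require, while gene counts do not show which *Trp53* allele was read. The noncoding gene *Gm26917* took 26.5 to 29.4% of the counts in induced libraries and 4.7 to 10.5% in the others. In the opposite direction, *Col1a1* took 5.61 to 11.3% in induced and 21.4 to 39.1% in the other libraries, and *Col1a2* 3.07 to 5.39% and 10.6 to 18.4%. The 14 chondrocyte markers summed to 18800 to 36930 CPM in juvenile, 44840 to 142500 CPM in adult, 1886 to 2123 CPM in *c-Myc* and 877.9 to 1044 CPM in *c-Myc* + *R172H* libraries, with none of the 14 at 0 throughout a group. The 11 osteoblast markers summed to 343900 to 841100 CPM in juvenile and adult libraries and to 56720 to 132700 CPM in induced libraries, and the 11 haematopoietic and 6 endothelial markers to at most 11.5 and 9.78 CPM. The 5 osteoclast markers summed to 202.7 to 411.2 CPM in juvenile and adult and 52.3 to 104.6 CPM in induced libraries. For the 6 marrow stromal markers the sums were 326.3 to 651.1 and 114.3 to 204.2 CPM. *Xist* was at 233.5 CPM in *c-Myc* replicate 2, at 211.6 CPM in *c-Myc* + *R172H* replicate 2 and at no more than 1.24 CPM in each other library. tdTomato, which cells lose when they turn on GFP, was at 28.9 to 34.5 CPM in induced libraries and at 0.695 to 8.68 CPM in the others. By the methods, the *c-Myc* allele of the induced mice also carries *mCherry*, and whether its reads were counted as tdTomato was not tested. These values are therefore not read as a share of cells without GFP.

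The ligand *Ihh*, Indian hedgehog (chr1:74945315-74951672, minus strand, mm10), was the most variable of the 9 genes. It was at 21.8, 39.6, 11.96 and 3.98 CPM in the juvenile libraries and at 54.9, 13.1, 15.0 and 26.9 CPM in the adult libraries. It was at 3.65 and 5.67 CPM in *c-Myc* and at 3.16 and 4.42 CPM in *c-Myc* + *R172H* libraries. The induced libraries lay below every adult library, whereas the lowest juvenile library, replicate 4, fell among them. In bulk samples, fewer cells of a type and less RNA per cell cannot be told apart.

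Juvenile minus adult, *Ihh* had a log2 fold change of -0.51 with an SE of 0.75 (edgeR adjusted p = 0.789). The 95% interval of that difference, -2.31 to 1.28, held changes of more than a doubling either way, and without adult replicate 1 the log2 fold change was 0.076. *Ihh* was lower in *c-Myc* than in juvenile libraries by a log2 fold change of -2.10 ± 0.74 (SE, edgeR adjusted p = 0.0391) and lower in *c-Myc* + *R172H* libraries by -2.36 ± 0.76 (SE, edgeR adjusted p = 0.0244). The first call was lost without juvenile replicate 2 (-1.48, adjusted p = 0.0565), *c-Myc* replicate 1 (-1.79, 0.240) or 2 (-2.43, 0.129), or *c-Myc* + *R172H* replicate 1 (-2.09, 0.0766) or 2 (-2.09, 0.0806). The second was lost without *c-Myc* + *R172H* replicate 1 (-2.15, adjusted p = 0.176) or 2 (-2.65, 0.121). With all 12 libraries in one fit both were lost (adjusted p = 0.0923 and 0.0603), and with only the 2 groups the first was (0.0666).

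Adult replicate 1, the library with the most *Ihh*, also had the highest chondrocyte marker sum, 142500 CPM, and juvenile replicate 4, with the least *Ihh* of the control libraries, had the lowest sum of those libraries, 18800 CPM. The order of *Ihh* was that of the marker sum in adult libraries but not in juvenile ones. There replicate 3 had the highest sum, 36930 CPM, with *Ihh* at 11.96 CPM, and replicate 2 had 35330 CPM, with *Ihh* at 39.6 CPM. The part of chondrocyte RNA in these differences was not tested. Within libraries, *Ihh* had 0.000565 to 0.00205 reads for each read of *Col2a1*, the main collagen of cartilage, in juvenile libraries and 0.000331 to 0.000542 in adult libraries. That ratio was 0.0081 to 0.0210 in *c-Myc* and 0.0246 to 0.0353 in *c-Myc* + *R172H* libraries, so *Col2a1* was reduced more than *Ihh*. These ratios of read counts, which need no normalization, were chosen after the values were seen.

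*Ptch1*, the ligand receptor and a target of the pathway (chr13:63508328-63573598, minus strand), was at 166.4, 144.5, 142.1 and 77.3 CPM in juvenile libraries. Adult libraries held 216.3, 131.5, 141.4 and 176.2 CPM, *c-Myc* libraries 149.3 and 174.0 CPM, and *c-Myc* + *R172H* libraries 165.5 and 151.2 CPM. The ranges of all 4 groups overlapped, with juvenile replicate 4 lowest and adult replicate 1 highest of the 12. The log2 fold change was -0.34 ± 0.22 (SE, edgeR adjusted p = 0.459) juvenile minus adult, 0.26 ± 0.22 (adjusted p = 0.347) *c-Myc* minus juvenile and 0.26 ± 0.22 (adjusted p = 0.342) *c-Myc* + *R172H* minus juvenile. *Ptch1* thus differed by less than the test could separate from the spread between libraries in all 3.

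*Hhip*, a membrane protein that binds and sequesters the ligand and is itself a target (chr8:79965851-80058006, minus strand), had the lowest counts per kilobase of the 9. Juvenile libraries held 14.2, 10.9, 9.46 and 2.73 CPM and adult libraries 30.6, 14, 11.9 and 10.1 CPM. *c-Myc* libraries held 2.01 and 2.95 CPM and *c-Myc* + *R172H* libraries 4.90 and 2.68 CPM. As for *Ihh*, every adult library was above every induced library and juvenile replicate 4 fell among the induced ones. *Hhip* was lower in *c-Myc* than in juvenile libraries by a log2 fold change of -1.95 ± 0.55 (SE, edgeR adjusted p = 0.00943), and this call was lost without *c-Myc* replicate 1 (-1.68, adjusted p = 0.0951).

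In *c-Myc* + *R172H* libraries *Hhip* was lower than in juvenile ones by -1.30 ± 0.52 (SE, edgeR adjusted p = 0.0487), next to the threshold of 0.05. Left out one at a time, juvenile replicate 1 (-1.02, adjusted p = 0.134), 2 (-1.23, 0.105) or 3 (-1.31, 0.0660), *c-Myc* replicate 1 (-1.32, 0.0562) or 2 (-1.32, 0.0562) and *c-Myc* + *R172H* replicate 1 (-1.81, 0.0631) or 2 (-0.96, 0.279) each ended that call, as did all 12 libraries in one fit (-1.31, 0.0640) and only the 2 groups (-1.34, 0.0515). Juvenile minus adult, the log2 fold change of *Hhip* was -0.84 ± 0.47 (SE, edgeR adjusted p = 0.374), with adult replicate 1 again highest. The part of chondrocyte RNA in the values of *Hhip* was not tested either. *Hhip* had 0.0354 to 0.0851 reads for each read of *Ptch1* in juvenile, 0.0575 to 0.141 in adult and 0.0135 to 0.0296 in induced libraries, so the induced and the other libraries did not overlap in that ratio. For each read of *Col2a1*, *Hhip* had 0.000388 to 0.00086 reads in juvenile and 0.000167 to 0.000503 in adult libraries. Those ratios were higher in induced libraries, at 0.00446 to 0.0109 in *c-Myc* and 0.0214 to 0.0382 in *c-Myc* + *R172H* libraries.

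**Figure D1:**
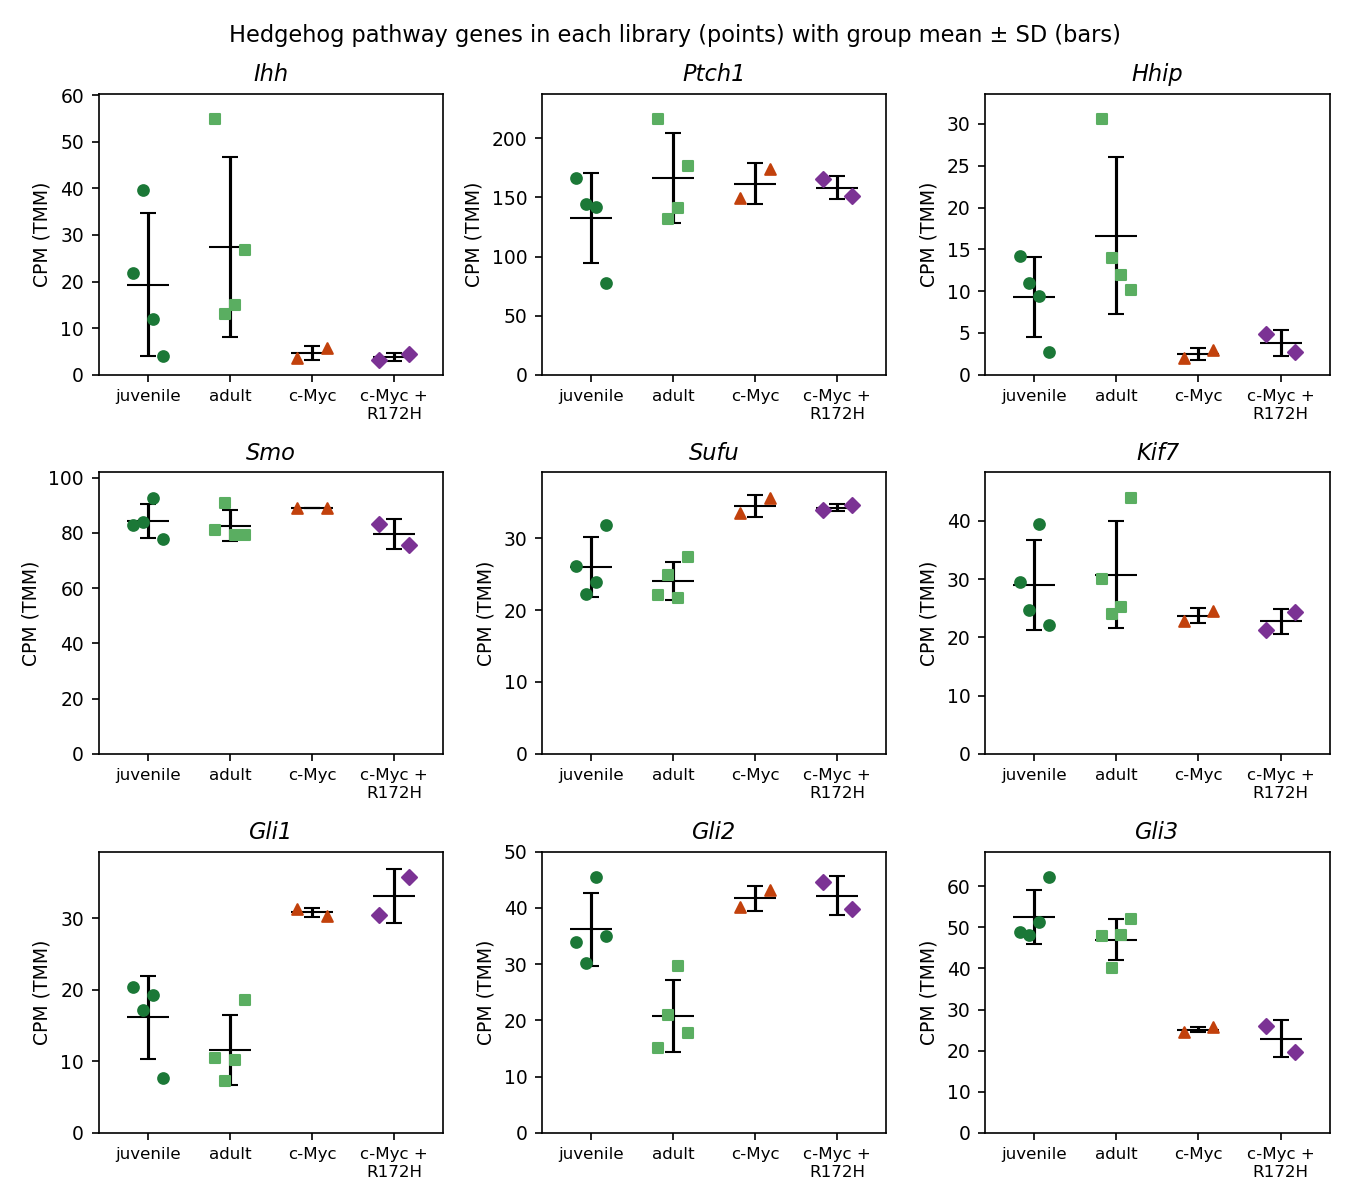
CPM (TMM-scaled counts, vertical axes from 0) of each of the 9 genes in the 4 juvenile, 4 adult, 2 *c-Myc* and 2 *c-Myc* + *R172H* libraries, with points for libraries and bars for the group mean and SD. *Gli1* and *Sufu* are higher and *Gli3* lower in all 4 induced libraries than in any other, *Gli2* is higher in all 4 juvenile than in any adult library, and *Ihh*, *Hhip* and *Ptch1* are highest in adult replicate 1, the leftmost adult point. How many of all genes separate in these ways was not counted.

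**Figure D2:**
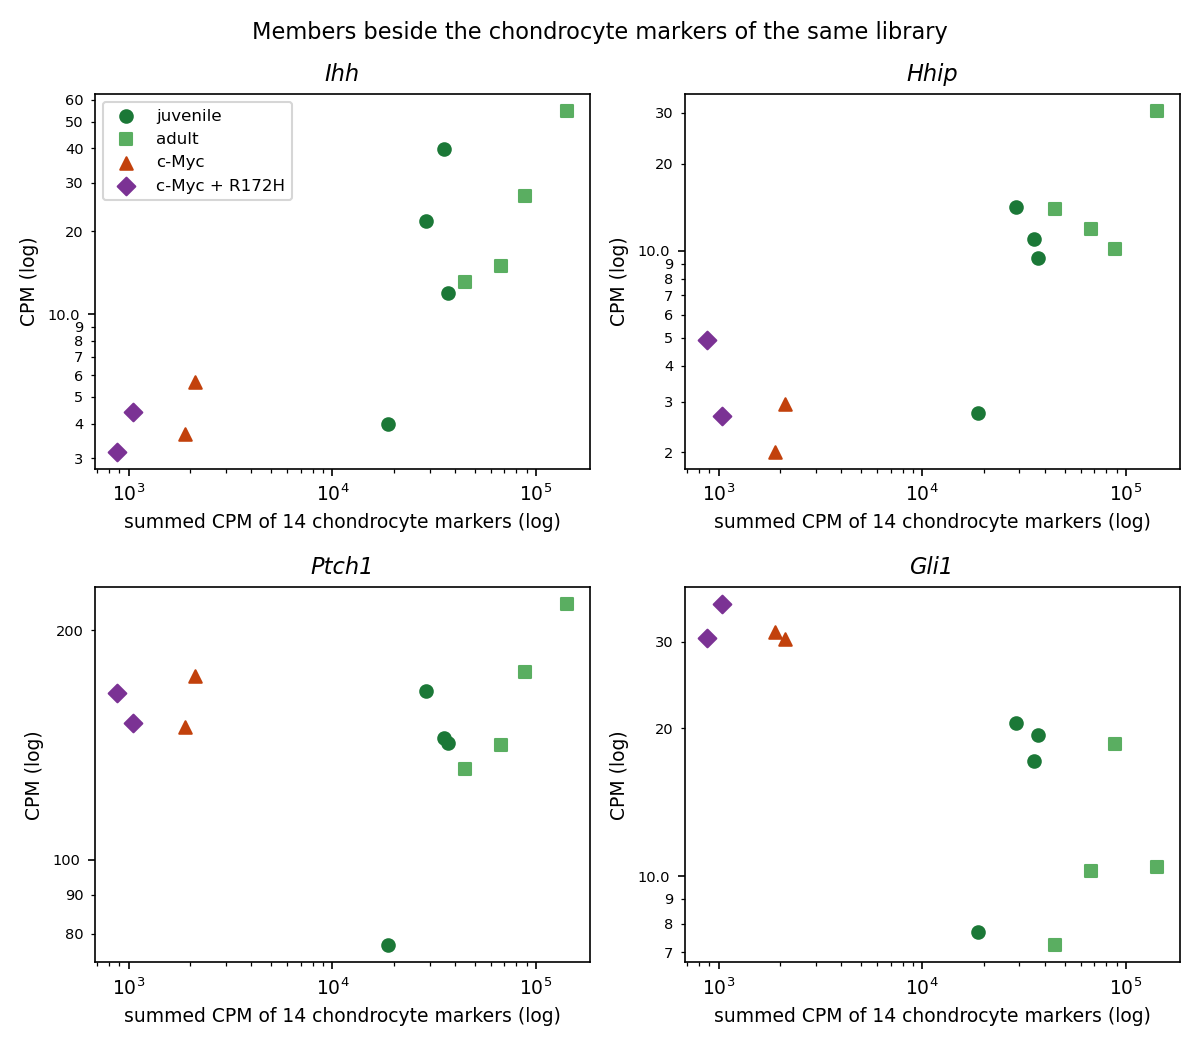
CPM of *Ihh*, *Hhip*, *Ptch1* and *Gli1* (vertical, log scale) against the summed CPM of 14 chondrocyte markers in the same library (horizontal, log scale), with 1 point per library. *Ihh* and *Hhip* are low in the 4 induced libraries, where the markers are at 877.9 to 2123 CPM, *Gli1* is high there, and juvenile replicate 4 is the leftmost control library and the lowest control library for *Ihh*, *Hhip* and *Ptch1*.

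*Smo*, the transducer that PTCH1 restrains (chr6:29735503-29761365, plus strand), varied least. It was at 82.8, 84.0, 92.6 and 77.9 CPM in juvenile, 81.1, 91.0, 79.3 and 79.3 CPM in adult, 88.9 and 89.0 CPM in *c-Myc* and 83.3 and 75.8 CPM in *c-Myc* + *R172H* libraries. Its log2 fold change was 0.020 ± 0.11 (SE) juvenile minus adult, with a 95% interval of -0.22 to 0.26, and 0.056 ± 0.099 *c-Myc* minus juvenile, with an interval of -0.16 to 0.27. *c-Myc* + *R172H* minus juvenile, it was -0.077 with an interval of -0.29 to 0.14. Under library totals in place of TMM the sign of the first and the last of these turned and *Smo* was called higher in both induced groups, as given below with the scaling.

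*Sufu*, which retains GLI proteins in the cytoplasm (chr19:46396896-46488804, plus strand), was at 26.1, 22.2, 23.9 and 31.8 CPM in juvenile and at 22.1, 25.0, 21.7 and 27.4 CPM in adult libraries. It was at 33.5 and 35.6 CPM in *c-Myc* and at 33.9 and 34.6 CPM in *c-Myc* + *R172H* libraries. The induced libraries were all above the others, although by only 33.5 against 31.8 CPM at the nearest point. *Sufu* was higher in *c-Myc* than in juvenile libraries by 0.39 ± 0.15 (log2, SE, edgeR adjusted p = 0.0467) and higher in *c-Myc* + *R172H* libraries by 0.41 ± 0.15 (edgeR adjusted p = 0.0365). Both calls were lost with RLE normalization (adjusted p = 0.0546 and 0.0553), with DESeq2 (0.0623 and 0.0615), with upper-quartile scaling (0.109 and 0.0781), with all 12 libraries in one fit (0.0511 and 0.0549), with only the 2 groups (0.0975 and 0.100) and without any 1 of juvenile replicates 1 to 3 or of the 4 induced libraries, where the log2 fold changes were between 0.31 and 0.44 and between 0.33 and 0.41. Juvenile minus adult, *Sufu* differed by 0.11 ± 0.17 (SE, edgeR adjusted p = 0.802).

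*Kif7*, the ciliary kinesin that regulates GLI processing (chr7:79698098-79715720, minus strand), was at 29.6, 24.8, 39.5 and 22.1 CPM in juvenile and at 30.1, 23.9, 25.2 and 43.9 CPM in adult libraries. *c-Myc* libraries held 22.9 and 24.6 CPM and *c-Myc* + *R172H* libraries 21.3 and 24.3 CPM. The 4 ranges overlapped, with the induced libraries near the low end of the others. No comparison was called, the log2 fold changes being -0.099 ± 0.21 (SE, edgeR adjusted p = 0.862) juvenile minus adult, -0.31 ± 0.21 (adjusted p = 0.230) *c-Myc* minus juvenile and -0.33 ± 0.21 (adjusted p = 0.184) *c-Myc* + *R172H* minus juvenile. Of the 4581 exon bases of *Kif7*, 877 lie opposite exons of *9330171B17Rik* and 51 opposite *Ticrr*. The strand setting of the counting is not stated, so reads there may be shared between genes or unassigned.

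Of the transcription factors, *Gli1* (chr10:127329882-127341974, minus strand), the amplifying activator and the most used readout of the pathway, was higher in the induced groups. It was at 20.5, 17.1, 19.3 and 7.70 CPM in juvenile libraries and at 10.4, 7.22, 10.2 and 18.6 CPM in adult libraries. It was at 31.3 and 30.4 CPM in *c-Myc* and at 30.5 and 35.8 CPM in *c-Myc* + *R172H* libraries, so that the lowest induced library was above the highest of the other 8. Replicate 1 of each induced group, without the *Xist* signal of replicate 2, was at 31.3 and 30.5 CPM. The rise was 0.90 ± 0.27 (log2, SE, edgeR adjusted p = 0.0131), or 1.87-fold, in *c-Myc* and 1.04 ± 0.27 (edgeR adjusted p = 0.00544), or 2.05-fold, in *c-Myc* + *R172H* relative to juvenile libraries.

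The first of these calls was lost without *c-Myc* replicate 1 (0.89, adjusted p = 0.0686) or 2 (0.93, 0.0541) and the second without *c-Myc* + *R172H* replicate 2 (0.89, 0.0598), in each case with the group at a single library. The means of *Gli1* ran from 33.1 ± 3.75 CPM (SD, n = 2) in *c-Myc* + *R172H* through 30.9 ± 0.660 (n = 2) in *c-Myc* and 16.2 ± 5.80 (n = 4) in juvenile to 11.6 ± 4.86 CPM (n = 4) in adult libraries. Juvenile minus adult, *Gli1* differed by 0.47 ± 0.31 (SE, edgeR adjusted p = 0.463), with overlapping ranges. *Gli1* shares 62 of its 4995 exon bases with *Arhgap9* and 265 with *Gm47200*, both on the opposite strand, and *Gli3* and *Hhip* have 188 and 175 exon bases opposite *Gm6556* and *Gm27820*. Within libraries there were 0.0997 to 0.136 reads of *Gli1* for each read of *Ptch1* in juvenile, 0.0482 to 0.105 in adult and 0.175 to 0.237 in induced libraries.

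*Gli2* (chr1:118834132-119053619, minus strand), the main activator downstream of SMO, was the only 1 of the 9 genes called between the ages, where 1.89% of all genes tested were called higher in juvenile libraries. It was at 34.0, 30.1, 45.5 and 35.03 CPM in juvenile libraries and at 15.0, 20.9, 29.6 and 17.7 CPM in adult libraries, so the groups did not overlap, although the lowest juvenile and the highest adult library were 30.1 and 29.6 CPM. It was 1.73-fold higher in juvenile libraries, a log2 fold change of 0.79 ± 0.20 (SE, edgeR adjusted p = 0.0308). The call was lost without juvenile replicate 1 (0.83, adjusted p = 0.0664), 3 (0.67, 0.0939) or 4 (0.81, 0.0659) and without adult replicate 1 (0.67, 0.0887) or 4 (0.72, 0.0995).

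In the induced groups *Gli2* was at 40.2 and 43.2 CPM and at 44.6 and 39.8 CPM, above every adult library and within the juvenile range. It was not called against juvenile libraries, at 0.19 ± 0.15 (log2, SE, edgeR adjusted p = 0.316) in *c-Myc* and 0.24 ± 0.15 (edgeR adjusted p = 0.203) in *c-Myc* + *R172H*. Without juvenile replicate 3, its highest juvenile library, both were called higher, at 0.31 (adjusted p = 0.0442) and 0.35 (adjusted p = 0.0229). In order of mean level, *Gli2* was at 42.2 ± 3.44 (SD, n = 2) in *c-Myc* + *R172H*, 41.7 ± 2.17 (n = 2) in *c-Myc*, 36.2 ± 6.56 (n = 4) in juvenile and 20.8 ± 6.36 CPM (n = 4) in adult libraries, and of these neighbours in the order only juvenile and adult did not overlap.

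*Gli3* (chr13:15463235-15730026, plus strand), the source of the main GLI repressor, moved the other way from *Gli1*. It was at 48.8, 48.1, 51.3 and 62.2 CPM in juvenile and at 47.8, 40.1, 48.3 and 52.0 CPM in adult libraries, which overlapped, with a log2 fold change of 0.15 ± 0.13 (SE, edgeR adjusted p = 0.599). It was at 24.6 and 25.6 CPM in *c-Myc* and at 26.04 and 19.8 CPM in *c-Myc* + *R172H* libraries, all below the lowest other library at 40.1 CPM. The fall against juvenile libraries was 2.12-fold in *c-Myc* (-1.09 ± 0.15, log2, SE, edgeR adjusted p = 7.00e-05) and 2.28-fold in *c-Myc* + *R172H* (-1.19 ± 0.15, edgeR adjusted p = 3.00e-05). Both calls were kept with each library left out in turn, and of the other alternatives both were lost only with library totals.

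The balance of the GLI genes within a library does not depend on normalization. There were 0.420, 0.356, 0.377 and 0.124 reads of *Gli1* for each read of *Gli3* in juvenile and 0.218, 0.180, 0.212 and 0.357 in adult libraries. The ratio was 1.27 and 1.19 in *c-Myc* and 1.17 and 1.81 in *c-Myc* + *R172H* libraries, so that *Gli1* had more reads than *Gli3* in each induced library and fewer in each of the others. The reads of *Gli2* for each read of *Gli3* were 0.563 to 0.886 in juvenile, 0.314 to 0.614 in adult, 1.63 to 1.69 in *c-Myc* and 1.71 to 2.01 in *c-Myc* + *R172H* libraries. *Gli1* against *Gli2* overlapped between control and induced libraries, at 0.220 to 1.05 and 0.683 to 0.900.

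**Figure D3:**
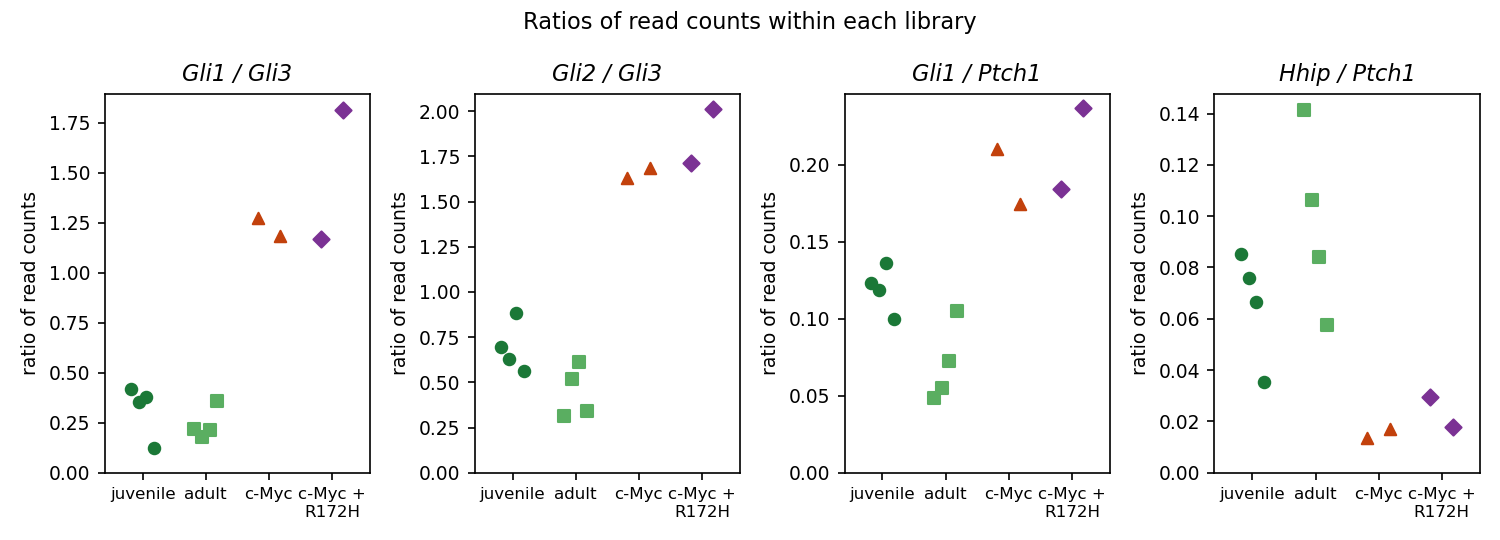
Ratios of read counts within each library (vertical axes from 0) for *Gli1* to *Gli3*, *Gli2* to *Gli3*, *Gli1* to *Ptch1* and *Hhip* to *Ptch1*, with 1 point per library in the 4 groups. In each panel the 4 induced libraries stand apart from the 8 others, above them in the first 3 and below them in the last. These ratios were chosen after the values were seen. *Ptch1* to *Smo*, not drawn, overlapped, at 0.992 to 2.01 in juvenile, 1.45 to 2.67 in adult, 1.68 to 1.96 in *c-Myc* and 1.99 to 2.00 in *c-Myc* + *R172H* libraries. How many pairs of all genes separate in this way was not counted.

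Per kilobase of exon, on which levels can be set between genes, *Smo* was highest in juvenile libraries at 15.0 ± 1.09 CPM per kilobase (SD, n = 4), followed by *Ptch1* at 9.35 ± 2.71. *Ihh* at 6.35 ± 5.04 and *Kif7* at 6.33 ± 1.67 came next, and *Sufu* was at 3.38 ± 0.544. *Gli3* at 5.49 ± 0.685 and *Gli2* at 5.26 ± 0.956 did not differ beyond their SDs, and *Gli1* was below both at 3.23 ± 1.16. *Hhip* was lowest at 1.03 ± 0.530 CPM per kilobase. In *c-Myc* libraries the order of the GLI genes was *Gli1* at 6.18 ± 0.132 (SD, n = 2) and *Gli2* at 6.07 ± 0.316, which did not differ beyond their SDs, above *Gli3* at 2.62 ± 0.0750. *c-Myc* + *R172H* libraries had *Gli1* at 6.63 ± 0.751, *Gli2* at 6.14 ± 0.501 and *Gli3* at 2.39 ± 0.464 CPM per kilobase (SD, n = 2).

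**Figure D4:**
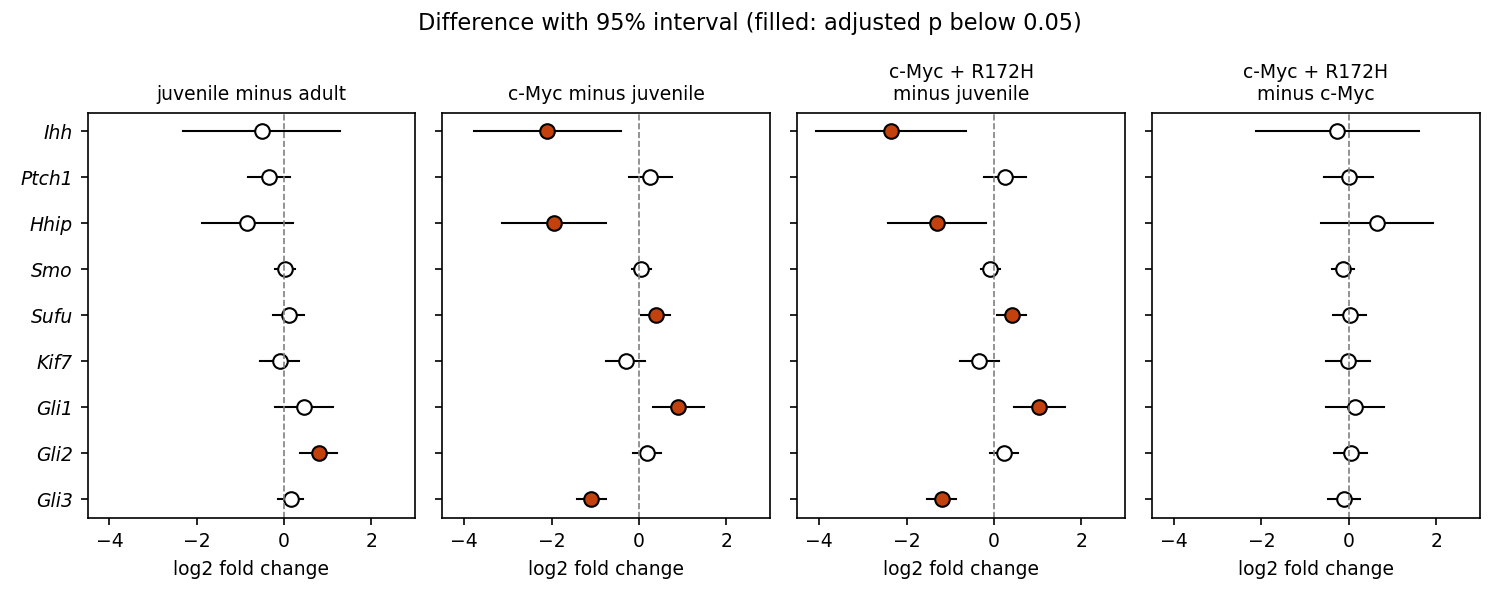
Log2 fold changes (horizontal) of the 9 genes with their 95% intervals in 4 comparisons, filled where the edgeR adjusted p was below 0.05. *Gli2* is the filled gene juvenile minus adult, *Ihh*, *Hhip* and *Gli3* are filled below 0 and *Sufu* and *Gli1* above 0 against juvenile in both induced groups, and no gene is filled *c-Myc* + *R172H* minus *c-Myc*.

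Between the ages, 1 of the 9 genes was called higher in juvenile and 0 lower, where 1.89% of 11345 genes tested were called higher and 3.23% lower. *c-Myc* minus juvenile, 2 of 9 were called higher and 3 lower, against 28.4% and 25.0% of 12588 genes. *c-Myc* + *R172H* minus juvenile, again 2 of 9 were called higher and 3 lower, against 30.4% and 26.3%. In these comparisons with induced groups the shares are near those of all genes. How many of all genes have libraries that do not overlap between groups was not counted. The median log2 fold change of the 9 was 0.020, 0.056 and -0.077 in the 3 comparisons, beside 0.00093, 0.037 and 0.076 over all genes tested. The last 2 comparisons share the 4 juvenile libraries, so the same 5 genes being called in both is not a second observation of the juvenile side.

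Between *c-Myc* + *R172H* and *c-Myc* libraries, 0 of the 9 genes were called by edgeR or DESeq2, and 0 of them had an unadjusted p below 0.05. Of all genes, 0.00794% were called higher and 0.461% lower. The 95% interval of the log2 fold change was -0.53 to 0.80 for *Gli1*, -0.33 to 0.42 for *Gli2*, -0.47 to 0.27 for *Gli3*, -0.56 to 0.56 for *Ptch1*, -0.36 to 0.39 for *Sufu*, -0.53 to 0.48 for *Kif7* and -0.38 to 0.11 for *Smo*. For *Ihh* (-2.13 to 1.60) and *Hhip* (-0.64 to 1.93) the intervals held more than a doubling. For *Smo* the *c-Myc* and *c-Myc* + *R172H* libraries did not overlap, at 88.9 and 89.0 against 83.3 and 75.8 CPM, with a log2 fold change of -0.13 ± 0.11 (SE, edgeR adjusted p = 1). The share of all genes that separate so between these groups was not counted, so the separation is not read as a result about *Smo*.

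How the libraries are scaled decides what these changes are relative to. With library totals in place of TMM, the median log2 fold change of all genes was 0.872 *c-Myc* minus juvenile and 1.12 *c-Myc* + *R172H* minus juvenile, with 6803 genes called higher and 1115 lower in the first and 7668 higher and 1169 lower in the second. With TMM the counts were 3577 and 3149 and then 3832 and 3311. On that scale *Gli1*, *Gli2*, *Sufu*, *Ptch1* and *Smo* were called higher in both induced groups, *Kif7* in *c-Myc* + *R172H* only, and none of the 9 lower. Relative to the median of all genes, *Gli1* was then at 0.85 and 0.94, *Gli3* at -1.12 and -1.26, *Hhip* at -2.04 and -1.42, *Ihh* at -2.19 and -2.49, and *Sufu* at 0.35 and 0.34, close to the TMM values. In juvenile minus adult, library totals moved the median to -0.243 with 53 genes called higher and 793 lower (214 and 367 with TMM), and *Gli2* was at 0.55 (adjusted p = 0.109), or 0.80 relative to that median.

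The rest of the pathway was followed in 63 further genes for ligand release, reception, intracellular regulation, the cilium and targets. Juvenile minus adult, 3 of the 55 tested were higher and 3 lower, against 1.89% and 3.23% of all genes, and their median difference was 0.092 (log2). With library totals 1 was higher and 5 were lower, where 53 of all 11345 genes were called higher and 793 lower. *Gpc3*, a glypican that competes with PTCH1 for the ligand, was higher in juvenile libraries (4.85 to 7.76 against 0.810 to 2.85 CPM, 1.89 ± 0.42, log2, SE, edgeR adjusted p = 0.0157). So were *Igf2*, a growth factor that the study names as a target (20.9 to 72.6 against 6.77 to 12.8 CPM, 2.13 ± 0.45, adjusted p = 0.0344), and *Prkaca*, the protein kinase A subunit that phosphorylates GLI proteins (0.53 ± 0.15, adjusted p = 0.0481). With library totals neither *Igf2* (1.94) nor *Prkaca* (0.28) was called. *Cdon*, a co-receptor, was lower (10.2 to 17.0 against 20.2 to 31.1 CPM, -0.81 ± 0.21, adjusted p = 0.0314), as were *Scube2* (-1.68 ± 0.43, adjusted p = 0.0298), which helps release of the ligand from the cell, and *Tulp3* (-0.66 ± 0.17, adjusted p = 0.0375), which carries receptors into cilia.

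Against juvenile libraries, *c-Myc* libraries had 5 of 57 further genes higher and 17 lower, against 28.4% and 25.0% of all genes tested, with a median of -0.16. With library totals 27 were higher and 6 lower, with a median of -0.20 relative to all genes. On that scale 6803 of all 12588 genes were called higher and 1115 lower. The genes for ligands and their release fell together, all 6 that were tested including *Ihh*, with a median of -2.85, or -2.91 relative to the median of all genes with library totals, on which scale 4 of the 6 were called. In the same comparison 14 of 14 chondrocyte, 11 of 11 osteoblast, 5 of 6 marrow stromal and 1 of 3 osteoclast markers tested were lower, with medians of -5.68, -1.93, -1.12 and -0.89, and their part in the fall of the release genes was not tested. *Scube1* was at 15.0 to 42.0 CPM in juvenile and 1.70 to 2.15 CPM in *c-Myc* libraries (-4.04 ± 0.41, edgeR adjusted p = 4.26e-06), *Scube3* fell by 3.603 ± 0.35 on the log2 scale (adjusted p = 2.68e-06), and *Disp1*, the transporter that releases the ligand, by 1.64 ± 0.22 (adjusted p = 5.23e-05). *Scube2* was at 1.74 to 4.17 CPM in juvenile libraries, at 0 and 0.183 CPM in *c-Myc* libraries and at 0 in both *c-Myc* + *R172H* libraries, where 3 counts would be 0.137 and 0.149 CPM. *Shh* was at 0 in all 12 libraries and *Dhh* at no more than 0.518 CPM, and neither was tested.

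Of the 8 receptors and co-receptors, 4 were lower in *c-Myc* libraries and 0 higher (25.0% and 28.4% of all genes). Beside *Hhip* these were *Cdon* (-1.42 ± 0.29, edgeR adjusted p = 0.00109), *Gas1* (-1.27 ± 0.24, adjusted p = 0.000724) and *Boc* (-1.04 ± 0.19, adjusted p = 0.000505), 3 cell surface proteins that present the ligand to PTCH1. With library totals 3 of the 8 were called higher and none lower, beside 6803 and 1115 of all 12588 genes. The median of the 8 relative to all genes was then -0.52, against -0.53 with TMM.

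The intracellular regulators had 3 of 21 higher and 4 lower, beside 28.4% and 25.0% of all genes, with *Evc2*, which links SMO to GLI activation at the cilium base, higher (0.73 ± 0.16, edgeR adjusted p = 0.00241) and *Tulp3* lower (-1.13 ± 0.19, adjusted p = 0.000341). *Btrc* (-0.61 ± 0.23, adjusted p = 0.0369) and *Spop* (-0.41 ± 0.14, adjusted p = 0.0284), which mark GLI proteins for degradation or processing, and *Prkacb* (-0.53 ± 0.16, adjusted p = 0.0143), a subunit of protein kinase A, were the other lower ones. With library totals 11 of the 21 were called higher, *Spop* among them, and none lower, beside 6803 and 1115 of all 12588 genes. *Efcab7*, which anchors the Evc2 complex, was also called higher, from 0 to 0.639 CPM in juvenile libraries, close to the floor, and 1.87 to 2.06 CPM in *c-Myc* libraries. Among 20 genes of the cilium, 2 were higher and 1 lower, read against the same shares, with a median of -0.016. *Rpgrip1l* (1.01 ± 0.25, adjusted p = 0.00425) and *Dync2h1* (0.80 ± 0.24, adjusted p = 0.0134), for the transition zone and for retrograde transport, were higher and *Ttbk2*, the kinase that starts cilium growth, was lower (-0.96 ± 0.34, adjusted p = 0.0305). With library totals 13 of these 20 were called higher and none lower, beside the same 6803 and 1115 of all genes. Their median was then -0.046 relative to all genes.

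Of 12 tested target genes, 2 rose and 5 fell from juvenile to *c-Myc* libraries (28.4% and 25.0% of all genes), with a median of -0.36. The higher ones were *Gli1* and *Ccnd1*, which encodes cyclin D1 and was at 31.0 to 74.7 CPM in juvenile and 134.3 to 150.8 CPM in *c-Myc* libraries (1.49 ± 0.32, edgeR adjusted p = 0.00371). The lower ones were *Igf2* (-4.91 ± 0.65, adjusted p = 0.000127), *Bmp2*, a bone morphogenetic protein (-2.32 ± 0.28, adjusted p = 1.94e-05), *Hhip*, the apoptosis inhibitor *Bcl2* (-1.17 ± 0.30, adjusted p = 0.00613) and *Snai1* (-0.93 ± 0.17, adjusted p = 0.000468). With library totals 5 of the 12 were called higher and 2, *Igf2* and *Bmp2*, lower, with a median of -0.42 relative to all genes. Of all 12588 genes, 6803 were called higher and 1115 lower on that scale. Of the targets used most as readouts, *Gli1* was higher, *Hhip* lower and *Ptch1* not called. The 14 chondrocyte markers were all lower in the same comparison, with a median of -5.68, and the 6 proliferation markers were all higher.

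**Figure D5:**
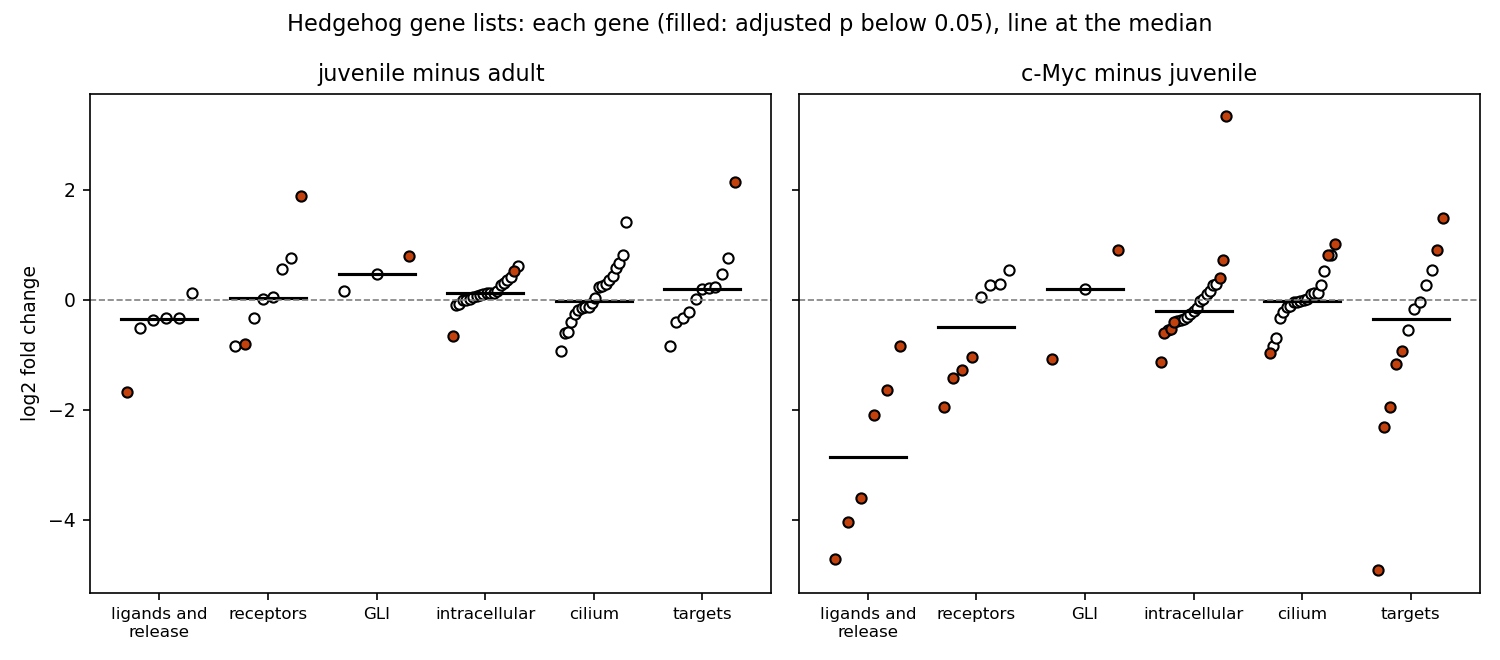
Log2 fold changes (vertical) of each tested gene of 6 Hedgehog lists, juvenile minus adult at left and *c-Myc* minus juvenile at right, with filled points where the edgeR adjusted p was below 0.05 and a line at the list's median. The ligand and release genes are all filled and below 0 at right, with a median of -2.85, whereas the cilium genes lie around 0 in both panels.

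The genes of the *c-Myc* + *R172H* group gave 7 higher and 18 lower of 57 against juvenile libraries, where 30.4% and 26.3% of all genes were called, with the ligand and release genes again 6 of 6 lower (median -2.77). With library totals these counts were 34 and 7 of 57, and 4 of 6 lower, beside 7668 and 1169 of all 12588 genes. *Gpc3* and *Gsk3a*, a kinase that phosphorylates GLI proteins, were the genes called higher here that had not been called in *c-Myc* (0.89 ± 0.25, edgeR adjusted p = 0.00879, and 0.37 ± 0.11, adjusted p = 0.0131), and *Ccnd2* was lower (-0.48 ± 0.13, adjusted p = 0.00928), but with library totals *Ccnd2* was called higher (0.58). None of the 57 was called between *c-Myc* + *R172H* and *c-Myc* libraries, so the difference itself was not shown for any of these.

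Genes with the pattern most like that of *Gli1* were sought by the root mean square difference of log2 CPM, each centred on its mean over the 12 libraries, among 8828 genes. The nearest 5 were *Nup88* (0.258), *2410006H16Rik* (0.266), *Ndufb8* (0.279), *Ndufb10* (0.282) and *Efl1* (0.283). For *Gli2* they were *Dock5* (0.160), *Ranbp3* (0.191), *Ctbp2* (0.1997), *Hrc* (0.212) and *Piezo1* (0.213). Among the 9 themselves, *Smo* and *Sufu* were nearest (0.284) and *Ihh* and *Gli1* farthest apart (1.80), while *Ihh* and *Hhip* were 0.610 apart and *Gli1* and *Gli2* 0.623. These distances are descriptions over libraries that share groups, scaling and depth.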

How the data were processed

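The authors used bcl2fastq 2.20 for demultiplexing, cutadapt 4.6 for trimming, STAR 2.7.11a for alignment to mm10 and HTSeq 2.0.5 for counting the reads of each gene. They deposited these raw counts, without normalization, for 32288 genes and transgenes in 12 libraries made with a directional kit. The strand setting of the counting is not given in the sources used here. Coordinates and exon lengths are from GENCODE on GRCm38, in which 32235 of the IDs and all 9 members were found.

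Counts were tested with edgeR 4.0.16 in R 4.3.3, with TMM normalization, filterByExpr, a robust quasi-likelihood fit and Benjamini-Hochberg adjustment over all genes tested, called at 0.05. Juvenile and adult libraries were fitted alone, and both induced groups in a joint fit with the juvenile libraries. The SE was approximated from the F statistic as the difference over the root of F. Juvenile and adult libraries came from separate pools of mice, whereas nothing states how many mice the induced libraries hold, so p-values measure the spread between these libraries. Without molecular identifiers in the reads, floors of 3 counts reflect only counting error. No 2 replicates agreed within sampling noise (chi-square over degrees of freedom of 5.45 to 136).

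The members and the gene lists were chosen with earlier results of these data known. All 9 members are named, together with the called genes of each list, up to 4 in a direction by fold change, the 5 genes most like *Gli1* and *Gli2*, and markers that check labels and cell types. The ratios, *Shh*, *Dhh*, *Disp1*, *Snai1* and *Ccnd2* were chosen after the values were seen. Alternatives were RLE, upper-quartile and library-total scaling, leaving out *Col1a1*, *Col1a2* and *Gm26917*, other filters and sets of libraries, DESeq2 1.42.0, a fold minimum, a replicate block and each library left out. The fits were also run on simulated counts with a common mean profile and a fixed spread, where the size and sign of planted changes were checked. Those counts held no shift of most genes, so they do not bear on the choice of scaling.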

Additional observations from a re-analysis of the deposited data

Results flagged for a closer look

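*Smo* in adult libraries was flagged because 1 of the 4 lay far from the rest. Adult replicate 2 was at 90.99 CPM, whereas the others were at 79.3, 79.3 and 81.1 CPM, and this gap was 0.846 of the group's range, above Dixon's 95% critical value. The 9 genes in the juvenile and adult groups gave 18 groups of 4 to examine, and chance flags about 1 in 20.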

How the results depend on the processing

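The number of the 9 genes called was 1 juvenile minus adult, 5 *c-Myc* minus juvenile and 5 *c-Myc* + *R172H* minus juvenile. Between the ages it was 0 with a minimum log2 change of 1 in either direction and with library totals, and 0 to 1 with single libraries left out. *c-Myc* minus juvenile it was 3 with the fold minimum, with all 12 libraries in one fit and with only the 2 groups, and 1 to 5 with single libraries left out. *c-Myc* + *R172H* minus juvenile it was 2 with all 12 libraries, 3 with only the 2 groups and 1 to 5 with single libraries left out. It was 0 *c-Myc* + *R172H* minus *c-Myc* under every alternative run. Where a group was left with 1 library, that library was assumed to vary like the other groups. The cause of these changes was not tested. Without a filter *Ptch1* was called higher in *c-Myc* (0.32, adjusted p = 0.0283) and *c-Myc* + *R172H* (0.31, adjusted p = 0.0273) than in juvenile libraries.

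With library totals the sign turned for *Smo* (-0.22), *Sufu* (-0.15) and *Gli3* (-0.11) juvenile minus adult, for *Kif7* *c-Myc* minus juvenile (0.53), for *Ptch1* (0.22), *Smo* (0.079), *Kif7* (0.18) and *Gli3* (0.11) *c-Myc* + *R172H* minus *c-Myc*, and for *Smo* (0.97) and *Kif7* (0.71) *c-Myc* + *R172H* minus juvenile. Of these, the last 2 were called. None of the following reversals was called in either fit. With upper-quartile scaling *Smo* was at -0.019 *c-Myc* minus juvenile and *Ptch1* at 0.011 *c-Myc* + *R172H* minus *c-Myc*. In the latter comparison *Ptch1* was at 0.0069 with only the 2 groups, and *Sufu* at -0.0060 with RLE, -0.012 with all 12 libraries and -0.0053 with DESeq2. Juvenile minus adult with single libraries left out, *Ihh* ran from -1.12 to 0.076, *Smo* from -0.026 to 0.075, *Sufu* from -0.0051 to 0.18 and *Kif7* from -0.28 to 0.12. *c-Myc* + *R172H* minus *c-Myc*, likewise, *Ihh* ran from -0.58 to 0.055, *Ptch1* from -0.14 to 0.089, *Sufu* from -0.056 to 0.037, *Kif7* from -0.16 to 0.043, *Gli1* from -0.023 to 0.22, *Gli2* from -0.059 to 0.093 and *Gli3* from -0.34 to 0.047.

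Called genes over all genes were 581 juvenile minus adult, with 265 under the fold minimum, 977 without a filter, 1094 with all 12 libraries, 935 with DESeq2 and 284 to 885 with single libraries left out. *c-Myc* + *R172H* minus *c-Myc* they were 59, with 32, 222, 22 and 201 in the same order, 12 with library totals, 629 with only the 2 groups and at least 8 with single libraries left out. The fold minimum left 4330 of 6726 and 4724 of 7143 in the 2 comparisons with juvenile libraries.

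With title numbers as a replicate block, *Gli2* was called higher in *c-Myc* (0.35, adjusted p = 0.0175) and *c-Myc* + *R172H* (0.39, adjusted p = 0.00796) than in juvenile libraries, giving 6 genes in both comparisons. Juvenile replicates 3 and 4 have no induced library of the same number, so these differences rest on juvenile replicates 1 and 2. Replicate 3, at 45.5 CPM, was the juvenile library with the most *Gli2*. The block changed no other call of the 9 genes. Over all genes it gave 434, 7684, 326 and 7998 calls juvenile minus adult, *c-Myc* minus juvenile, *c-Myc* + *R172H* minus *c-Myc* and *c-Myc* + *R172H* minus juvenile. By title, same-numbered libraries did not deviate together between the ages (correlations of -0.052 to 0.037). The library names number the adult libraries differently from the titles. By name, juvenile replicate 3 shares its number with adult replicate 1 (correlation of 0.021) and juvenile replicate 4 with adult replicate 2 (0.11). A block by those names was not fitted. Between *c-Myc* and *c-Myc* + *R172H*, same-numbered libraries gave 0.14 and the others -0.14. With 2 libraries in a group the deviations mirror each other, so this is a single value and cannot show pairing. Replicate 2 of both groups also shared the *Xist* signal.

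The number of libraries, 2 in each induced group, limits the comparisons with those groups.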
